A study of Mus musculus with 12 samples.

Results

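The cadherin superfamily genes described here are the 92 protein-coding mouse genes whose symbol is Cdh followed by a number or begins with Pcdh, taken from the 54392 gene rows of the table by matching each gene identifier to GENCODE release M21. They split into 57 clustered protocadherins (14 Pcdha, 22 Pcdhb and 21 Pcdhg genes, all on chromosome 18) and 35 other genes (23 cadherins and 12 protocadherins outside the clusters). Expression was measured by RNA-seq in NIH-3T3, an immortalised fibroblast line from mouse embryos, in 4 groups of 3 libraries. KO1, KO2 and KO3 carry the genotype label of a Crls1 knockout and WT that of intact Crls1, the gene of cardiolipin synthase, which makes the signature lipid of the mitochondrial inner membrane. Per the labels, the knockouts were made by transfecting Cas9 with a guide against Crls1 and sorting single GFP-positive cells, so each knockout line descends from 1 cell and stands for 1 clone. Whether WT cells were cloned or sorted in the same way is not stated. A difference that all clones share with one another cannot be told apart from cloning and sorting, and a difference of 1 clone cannot be told apart from the history of that cell. All groups were grown alike in a medium with glucose, serum, pyruvate and uridine. Nothing in the labels says that the 3 libraries of a group came from separate cultures, so the p-values measure only the spread between these libraries, which may be technical.

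Values are the authors' normalized counts per gene, and the libraries hold 32929242 to 42211807 reads each. Crls1 itself had 209, 209 and 213 in KO1, 336, 338 and 374 in KO2, 363, 372 and 408 in KO3, against 739.7, 873 and 834 in WT, and every clone library lay below every WT library, while KO2 and KO3 overlapped each other. Its log2 differences from WT, that is, differences of mean log2(normalized count + 1), were -1.95 in KO1, -1.22 in KO2 and -1.09 in KO3 (limma with Benjamini-Hochberg adjustment, adjusted p at most 4.54e-07). All differences given below for single genes are such log2 differences, with the standard error (SE) of the fit. All 8 fibroblast markers listed passed the expression filter, and their summed normalized count was 776473 to 812584 in KO1, 858575 to 902539 in KO2, 832129 to 849546 in KO3, against 802003 to 885068 in WT. Most of each sum was Fn1 and Col1a2. At a limma adjusted p under 0.05, 3 of these 8 were higher and 2 lower in KO1 and in KO2. In KO3, 3 were higher and 3 lower. Shares over all genes tested are given below. Means of Col3a1 were 7939 in KO1, 884 in KO2 and 3664 in KO3, against 148 in WT. WT replicate 1 stood somewhat apart from the other 2 WT libraries, and results that rest on it are given below with and without it.

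Classical cadherins are calcium-dependent adhesion proteins that bind the same cadherin on a neighbouring cell and connect it to actin through beta- and alpha-catenin. E-cadherin (Cdh1) is the cadherin of epithelial junctions, while N-cadherin (Cdh2) is the one most mesenchymal cells use, and fibroblasts normally carry little E-cadherin. Protocadherins adhere more weakly and signal through other partners. The clustered protocadherins are known for giving neurons individual surface identities. Each Pcdha and Pcdhg gene has its own variable exon and promoter, spliced to constant exons that its cluster shares, while Pcdhb genes are single-exon genes. Promoter choice in single cells is largely stochastic, involves CTCF, cohesin and DNA methylation, and can be passed on to daughter cells.

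The upstream windows of the 4 genes of chromosomes 2, 3 and X around which the results outside the clusters turn are shown so that their CG content can be compared. Each window holds the 250 bases before the annotated start, 5′ to 3′ on the strand of the gene (RefSeq, GRCm38.p6), with every CG in capitals. They lie at chr2:178430265-178430514 on the plus strand for Cdh26, chr3:45378148-45378397 on the plus strand for Pcdh10, chrX:133688994-133689243 on the minus strand for Pcdh19 and chr3:49757317-49757566 on the minus strand for Pcdh18.
Cdh26: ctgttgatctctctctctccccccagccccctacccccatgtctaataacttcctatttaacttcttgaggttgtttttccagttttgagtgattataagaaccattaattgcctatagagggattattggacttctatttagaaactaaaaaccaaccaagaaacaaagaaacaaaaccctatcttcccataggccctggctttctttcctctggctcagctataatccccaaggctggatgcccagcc
Pcdh10: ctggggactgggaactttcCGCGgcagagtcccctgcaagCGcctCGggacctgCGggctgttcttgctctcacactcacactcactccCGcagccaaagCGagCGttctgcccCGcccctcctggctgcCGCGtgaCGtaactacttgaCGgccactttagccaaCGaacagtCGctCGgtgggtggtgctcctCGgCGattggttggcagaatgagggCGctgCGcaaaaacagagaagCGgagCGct
Pcdh19: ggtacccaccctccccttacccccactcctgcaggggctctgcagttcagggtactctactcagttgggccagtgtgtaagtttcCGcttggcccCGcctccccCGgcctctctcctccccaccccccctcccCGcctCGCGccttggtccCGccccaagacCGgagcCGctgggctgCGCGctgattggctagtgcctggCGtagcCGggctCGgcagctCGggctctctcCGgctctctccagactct
Pcdh18: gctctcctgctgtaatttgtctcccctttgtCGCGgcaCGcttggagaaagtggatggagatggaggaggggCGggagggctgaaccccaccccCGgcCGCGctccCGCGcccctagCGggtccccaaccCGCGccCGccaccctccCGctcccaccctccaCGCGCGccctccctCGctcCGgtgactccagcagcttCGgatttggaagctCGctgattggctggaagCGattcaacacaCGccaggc
The Cdh26 window held 0 CG, the Pcdh10 window 22, the Pcdh19 window 16 and the Pcdh18 window 23, counted on 1 strand since CG reads the same on both. Across 32851 windows of this length, 92.1% held at least 1 CG and the median was 6. The letters CANNTG, whose reverse complement has the same pattern, occurred in 66.2% of all windows. They occurred 0 times in the windows of Cdh26, Pcdh10 and Pcdh18 and once in that of Pcdh19, as CAGTTG. The letters CAGGTG or CACCTG, the same site read on either strand and a subset of CANNTG, occurred in 17.2% of all windows and in none of these 4. Among the 92 members, 22 had a window in the table. These counts are descriptions of the windows only. Pcdh10 was higher in KO3 and Pcdh18 lower there, and both windows held more CG than the median window.

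NIH-3T3 cells carried transcripts of a minority of the cadherin genes outside the clusters. Of the 92 members, 58 passed an expression filter, which asked that 3 or more of the 12 libraries reach a normalized count of 10, 14 were at 0 in every library and the other 20 had low values, none above 23.2. Those that passed were 11 of 23 Cdh genes, 5 of 12 non-clustered protocadherins, 4 of 14 Pcdha, 21 of 22 Pcdhb and 17 of 21 Pcdhg genes. The genes at 0 everywhere were Cdh4, Cdh6, Cdh7, Cdh8, Cdh9, Cdh10, Cdh12, Cdh20, Pcdh7, Pcdh8, Pcdh11x, Pcdh17, Pcdh20 and Pcdhb1. Cdh11, a cadherin known from many mesenchymal cells, did not pass the filter, with values of 0, 0 and 0 in KO1, 0, 1.92 and 0 in KO2, 1.04, 2.63 and 0 in KO3, against 0, 0 and 1.81 in WT. Cdh13, which is anchored to the membrane by a lipid, and Pcdh15, which pairs with Cdh23 in the tip links of hair cells, had at most 4.22 and 3.93, both in KO1.

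Per kilobase of exon, Cdh2, Pcdh18, Pcdh19 and Cdh26 led the non-clustered genes in KO1, whereas Cdh2 and Pcdh18 led in WT. In KO1, Cdh2 was at 700.0 ± 19.5, Pcdh18 at 638 ± 22.1, Pcdh19 at 545 ± 20.97 and Cdh26 at 523 ± 49.3 normalized counts per kilobase (SD, n = 3), the last pair within their spread. In WT, Cdh2 was at 673 ± 71.6 and Pcdh18 at 625 ± 49.3, which overlap, followed by Pcdh1 at 265 ± 10.7, Cdh24 at 139 ± 14.2 and Pcdh19 at 105 ± 11.7 per kilobase. Cdh26 was at 13.2 ± 2.02, Pcdh10 at 11.8 ± 0.799 and Cdh1 at 3.89 ± 0.817 per kilobase in WT. Pcdh19 and Cdh26 were thus closer to Cdh2 per kilobase in KO1 than in WT. Cdh1 stayed far below Cdh2 per kilobase in each clone, at 76.5 ± 3.67 for Cdh1 and 700.0 ± 19.5 for Cdh2 in KO1, 40.4 ± 3.17 and 819 ± 11.02 in KO2, and 67.2 ± 3.27 and 667 ± 6.45 in KO3.

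More members were higher than lower in KO1 and in KO2, and more were lower than higher in KO3. In KO1, 28 of the 58 tested members were higher than in WT at a limma adjusted p under 0.05 (48.3%, against 26.9% of all 15073 genes tested) and 6 were lower (10.3%, against 25.4%). In KO2, 25 were higher (43.1%, against 29.9%) and 8 lower (13.8%, against 30.5%). In KO3, 10 were higher (17.2%, against 26.8%) and 19 lower (32.8%, against 27.3%). Taking both directions, the 34, 33 and 29 called members stood beside backgrounds of 52.3%, 60.4% and 54.1% in KO1, KO2 and KO3, so a call as such was common among all genes. With the further condition of at least a 2-fold difference, 14 members were higher and 3 lower in KO1, against 10.3% and 4.74% of all genes. In KO2 there were 11 and 4, against 10.2% and 7.61%. In KO3 there were 6 and 14, against 8.0% and 8.01%. The median log2 difference of the tested members was 0.50 in KO1, 0.31 in KO2 and -0.17 in KO3, where that of all genes tested was 0.02, 0.00 and 0.00. Cdh3, Cdh15, Cdh17, Pcdha1, Pcdha3 and Pcdha12 were under 10 in every WT library and passed the filter only through the clones, which bears on their direction. Cdh22, called lower in KO3, would not have passed without the WT libraries, which bears on its direction. The comparisons share the WT libraries and are therefore not independent of each other.

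Across the clones, 9 members were called higher in all of them (Cdh1, Cdh3, Cdh26, Pcdh10, Pcdh19, Pcdhb15, Pcdhb19, Pcdhgc3 and Pcdhgc4), a pattern held by 12.9% of all genes tested. Pcdhb21 was the 1 member lower in all clones, where the share over all genes was 13.3%. Another 5 (Pcdhb2, Pcdhb4, Pcdhb11, Pcdhga5 and Pcdhgb2) were called in opposite directions in different clones, against 8.38% of all genes. All 5 are clustered protocadherins, as are 42 of the 58 tested members. Of the 16 tested non-clustered genes 5 were higher in all clones, Cdh3 among them. Cdh3 passed the filter only through the clones, which bears on its direction. Its KO2 call was lost without KO2 replicate 1 or WT replicate 3, and limits of other calls are given below with each gene.

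Among classical cadherins, E-cadherin rose in every clone while N-cadherin moved little. Cdh1 (ENSMUSG00000000303.12, chr8:106603351-106670246, plus strand), E-cadherin, had 342, 338 and 369 in KO1, 185, 171 and 199.6 in KO2, 324, 300.1 and 297 in KO3, against 19.99, 13.5 and 19.9 in WT. Every clone library lay above every WT library. The log2 differences from WT were 4.24 (SE 0.15) in KO1, 3.33 (SE 0.15) in KO2 and 4.06 (SE 0.15) in KO3 (limma adjusted p at most 2.54e-09), and the level in KO2 was lower than in KO1 by a log2 difference of -0.92 (SE 0.15) (limma adjusted p 0.000326). As values come from bulk RNA, more cells with the transcript and more transcript per cell cannot be told apart here or below.

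Cdh3 (ENSMUSG00000061048.8, chr8:106510891-106557297, plus strand), P-cadherin, the cadherin of basal epithelial layers, is the neighbour of Cdh1 on chromosome 8 and stayed weak, with 22.5, 20.1 and 14.8 in KO1, 20.5, 9.58 and 7.03 in KO2, 21.8, 36.9 and 29.8 in KO3, against 5.88, 4.14 and 0.903 in WT. It passed the filter only through the clones, so its difference from WT is given as values, with no test. The clone and WT values did not overlap. Cdh26 (ENSMUSG00000039155.15, chr2:178430531-178487366, plus strand), an atypical cadherin known from epithelia of the human gut, showed the highest called fold change among members above a mean of 100. It had 1673, 1406 and 1652 in KO1, 656, 521 and 513 in KO2, 386, 499 and 488 in KO3, against 39.98, 45.6 and 33.4 in WT. All 9 clone libraries were above all 3 WT libraries, with log2 differences of 5.28 (SE 0.15) in KO1, 3.80 (SE 0.15) in KO2 and 3.50 (SE 0.15) in KO3 (limma adjusted p at most 1.09e-09). KO1 was itself above KO2 and KO3: the differences were -1.49 (SE 0.15) for KO2 minus KO1 and -1.79 (SE 0.15) for KO3 minus KO1 (limma adjusted p at most 5.83e-06).

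Cdh2 (ENSMUSG00000024304.14, chr18:16588877-16809246, minus strand), N-cadherin, had 5817, 5506 and 5617 in KO1, 6697, 6519 and 6611 in KO2, 5398, 5319 and 5418 in KO3, against 6094, 5039 and 5159 in WT. In KO2 all libraries were above those of WT, by a log2 difference of 0.29 (SE 0.06) (limma adjusted p 0.00175), while the KO1 and KO3 values fell within the range of WT, whose replicate 1 was the highest. Cdh24, a type II cadherin that also binds catenins, was lower in KO1 with a log2 difference of -0.31 (limma adjusted p 0.00985), with 382, 394 and 388 in KO1 and 434, 533 and 485 in WT. Of 8 epithelial markers 3 passed the filter, and the summed normalized count of the list was 29.5 to 48.5 in KO1, 52.7 to 58.8 in KO2, 17.6 to 35.1 in KO3, against 89.4 to 100.4 in WT. Epcam and Cldn4, which define many epithelia, were at 0 in every library but 1 for Epcam. Krt8 had 7.49, 6.33 and 1.97 in KO1 and 8.40, 12.5 and 7.91 in KO2. It had 2.07, 2.63 and 8.52 in KO3, against 76.4, 93.2 and 84.9 in WT. Every clone library lay below every WT library. Krt8 would not have passed the filter without the WT libraries, which bears on its direction, and is given as values, with no test. Krt14 had 11.8, 19.0 and 11.8 in KO1 and 23.3, 20.1 and 17.6 in KO2. It had 14.5, 26.3 and 20.2 in KO3, against 1.18, 3.11 and 1.81 in WT. Krt14 passed the filter only through the clones, which bears on its direction, and is given as values, with no test. Ocln, the tight junction protein occludin, had 24.6, 23.2 and 15.7 in KO1, 22.4, 11.5 and 17.6 in KO2, 1.04, 3.51 and 1.07 in KO3, against 11.8, 3.11 and 2.71 in WT. Ocln passed the filter only through KO1 and KO2, which bears on its direction, and is given as values, with no test. Of the 3 tested markers, Krt14 included, 2 were higher and 1 lower in KO1 and in KO2, and 1 was higher and 1 lower in KO3. The filter bears on the direction of all 3. Over all genes tested, 26.9%, 29.9% and 26.8% were higher in KO1, KO2 and KO3, and 25.4%, 30.5% and 27.3% lower. Most of the WT sum was Krt8. The part of other epithelial transcripts in the Cdh1 value was not tested.

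**Figure D1:**
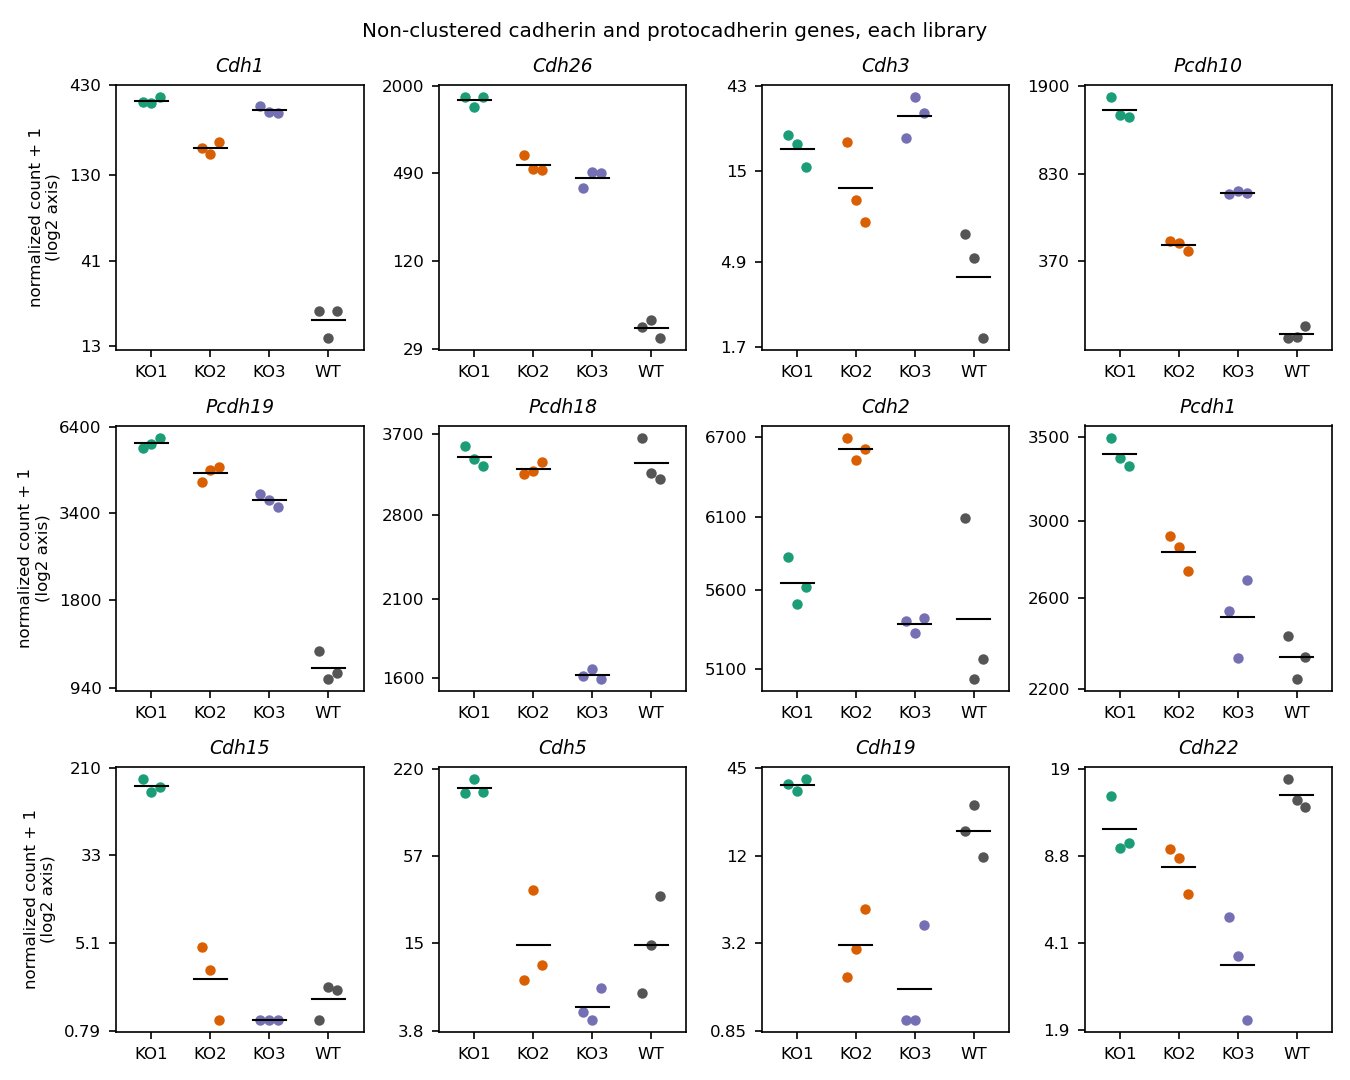
Normalized count + 1 on a log2 axis for 12 non-clustered genes in each library, with KO1, KO2, KO3 and WT from left to right. Points are libraries and lines are means on the log scale. Cdh1, Cdh26, Cdh3, Pcdh10 and Pcdh19 lay above WT in all clones, Pcdh18 was low in KO3, and Cdh15 and Cdh5 were high in KO1.

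Several cadherins known from other tissues were high or nearly absent in some clones and not in others. Cdh15, M-cadherin, which muscle precursor cells use, had 167, 125 and 141 in KO1, 3.73, 1.92 and 0 in KO2, 0, 0 and 0 in KO3, against 0, 1.04 and 0.903 in WT. Its reads summed to 417 in KO1 and 2 in WT, a ratio of 210.3 after normalization that rests on very few WT reads. KO2 had 6 reads and KO3 had 0. Cdh15 passed the filter only through KO1, so its difference from the other groups is given as values, with no test. Of 7 skeletal muscle markers 4 passed the filter, with summed normalized counts of 1656 to 2223 in KO1, 263 to 361 in KO2, 162 to 1714 in KO3, against 87.03 to 121 in WT. Of these 4, 2 were higher in KO1 and 1 in KO2, and in KO3 1 was higher and 1 lower. Myf5 passed the filter only through KO1, which bears on its direction in these counts, and Myh3 would not have passed without KO2. Over all genes tested, 26.9%, 29.9% and 26.8% were higher in KO1, KO2 and KO3, and 25.4%, 30.5% and 27.3% lower. The upper end in KO3 was Ttn in replicate 1, at 1564, against 5.26 and 10.7 in the other KO3 libraries, and Ttn was called in no clone. Des, which encodes the intermediate filament desmin, was higher by 1.06 in KO1, 1.48 in KO2 and 0.91 in KO3 (limma adjusted p at most 0.00059). The early myogenic regulator Myf5 was at 1345, 1377 and 1412 in KO1, 0, 0 and 0 in KO2, 0, 0.877 and 0 in KO3, against 0, 0 and 0 in WT, whereas Myod1 was at 0 in every library and Myog at most at 2.11. The part of other muscle transcripts in the Cdh15 value was not tested.

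Cdh5, VE-cadherin of endothelial junctions, was likewise high in KO1, with 151, 188 and 153 in KO1, 7.46, 32.6 and 9.67 in KO2, 4.15, 3.51 and 6.39 in KO3, against 5.88, 13.5 and 29.8 in WT. The KO1 libraries lay above all others, at a log2 difference from WT of 3.50 (SE 0.56) (limma adjusted p 0.000208). KO2 and KO3 were below KO1 with a log2 difference of -3.50 and -4.89 (limma adjusted p at most 0.00028). Of 7 endothelial markers 3 passed the filter, summing to 40.3 to 58.9 in KO1, 508 to 599.6 in KO2, 28.96 to 83.1 in KO3, against 11.7 to 24.7 in WT. Nearly all of the KO2 sum was Tie1, at 495, 488 and 518 in KO2 and at most 4.14 in WT, while Cldn5 was at 0 throughout. Of the 3 tested markers, 2 were higher in KO1, 1 in KO2 and 1 in KO3, and none was lower. Over all genes tested, 26.9%, 29.9% and 26.8% were higher in KO1, KO2 and KO3, and 25.4%, 30.5% and 27.3% lower. Pecam1 was higher in KO1 by 1.32 (limma adjusted p 0.0461). Tek had 9.63, 25.3 and 12.8 in KO1 and 9.33, 1.92 and 67.7 in KO2. It had 19.7, 21.1 and 59.7 in KO3, against 1.18, 3.11 and 1.81 in WT. Tek and Tie1 passed the filter only through the clones, which bears on their direction, so both are given as values, with no test. Emcn, below the filter, had 17.1, 6.33 and 3.93 in KO1 and 0 in all other libraries. The part of other endothelial transcripts in the Cdh5 value was not tested. Pcdh12, a protocadherin first known from endothelium, was higher in KO2 by 2.42 (SE 0.58) (limma adjusted p 0.00323), at 39.2, 34.5 and 28.1 in KO2 and 1.18, 6.21 and 16.3 in WT.

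Cdh19, a type II cadherin of Schwann cell precursors, nearly disappeared from KO2 and KO3, with 34.2, 30.6 and 37.4 in KO1, 0.933, 1.92 and 4.396 in KO2, 0, 0 and 3.196 in KO3, against 16.5, 24.8 and 10.8 in WT. The log2 differences were -2.49 (SE 0.57) in KO2 and -3.44 (SE 0.57) in KO3 (limma adjusted p at most 0.00245). Its reads in KO3 summed to 3 against 50 in WT, so that KO3 was lower by a ratio of 17.4 (95% counting interval 5.61 to 87.0). Sox10, which marks that lineage, was at 0 in all libraries but 1. Cdh22, another type II cadherin, was weak everywhere, with 13.9, 8.44 and 8.85 in KO1 and 8.40, 7.67 and 5.27 in KO2. It had 4.15, 2.63 and 1.07 in KO3, against 16.5, 13.5 and 12.6 in WT. Cdh22 would not have passed the filter without the WT libraries, so its differences are given as values, with no test. Cdh23, the partner of Pcdh15 in hair cells, was lower in KO3 with a log2 difference of -1.28 (limma adjusted p 0.0295), but not without KO3 replicate 1, KO3 replicate 3 or WT replicate 1, where the adjusted p reached 0.109, nor with no filter on low values, at 0.054. Cdh17, the intestinal and liver cadherin, had 11.8, 19.0 and 15.7 in KO1 and 31.7, 18.2 and 11.4 in KO2. It had 13.5, 8.77 and 3.20 in KO3, against 7.06, 3.11 and 7.23 in WT. Cdh17 passed the filter only through the clones, so its differences are given as values, with no test. Its calls in KO1 and KO2, which stand in the counts above, were lost without certain single libraries. The KO1 call was also lost with DESeq2, quantile normalization or no filter.

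The non-clustered protocadherins that were expressed are mostly delta-protocadherins, a group known for cell sorting in the developing nervous system. Pcdh10 (ENSMUSG00000049100.15, chr3:45378398-45435623, plus strand), a delta-2 protocadherin that binds the WAVE actin regulator complex, had 1717, 1439.5 and 1424 in KO1, 446, 436 and 407 in KO2, 688, 713 and 699 in KO3, against 179, 180.2 and 201 in WT. No clone library overlapped with WT or with a library of another clone. The log2 differences from WT were 3.02 (SE 0.09) in KO1, 1.20 (SE 0.09) in KO2 and 1.90 (SE 0.09) in KO3 (limma adjusted p at most 1.71e-07). KO2 was lower than KO1 with a log2 difference of -1.82 and KO3 lower than KO1 with a log2 difference of -1.12, while KO3 was higher than KO2 by 0.70 on the log2 scale (limma adjusted p at most 2.37e-05).

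Pcdh19 (ENSMUSG00000051323.16, chrX:133582860-133688987, minus strand), the X-linked delta-2 protocadherin whose human counterpart is mutated in a form of epilepsy, had 5501, 5663 and 5935 in KO1, 4273, 4666 and 4789.5 in KO2, 3924, 3759.9 and 3566 in KO3, against 1234, 1001 and 1049 in WT. The groups fell into the order KO1, KO2, KO3 and WT with no overlap. Log2 differences from WT were 2.38 (SE 0.08) in KO1, 2.07 (SE 0.08) in KO2 and 1.78 (SE 0.08) in KO3 (limma adjusted p at most 1.51e-09). The 40 nearest tested genes on the X chromosome, 20 on each side, had a median log2 difference of 0.06 in KO1, 0.08 in KO2 and -0.37 in KO3. With that median subtracted, KO3 minus KO2 was 0.17 in place of -0.29, so the order of these clones turned. Pcdh18 (ENSMUSG00000037892.13, chr3:49743296-49757325, minus strand), another delta-2 member, had 3553, 3399 and 3319.8 in KO1, 3222, 3262 and 3366 in KO2, 1608, 1646 and 1589.6 in KO3, against 3656, 3239 and 3166 in WT. KO3 was below all other libraries, with a log2 difference of -1.05 (SE 0.06) from WT, -1.08 (SE 0.06) from KO1 and -1.02 (SE 0.06) from KO2 (limma adjusted p at most 3.12e-08), while the KO1 and KO2 libraries overlapped with WT. The median of the 40 genes around Pcdh18 in KO3 was -0.31, and the same -0.31 held around Pcdh10, which was higher in that clone. Pcdh1, a delta-1 protocadherin found in airway epithelium, had 3495, 3367 and 3319 in KO1, 2914, 2855 and 2731 in KO2, 2538, 2327 and 2687 in KO3, against 2426, 2239 and 2332 in WT. It was higher by 0.54 (SE 0.06) in KO1 and 0.28 (SE 0.06) in KO2 (limma adjusted p at most 0.00125), and the KO3 libraries overlapped with WT.

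The summed level of each protocadherin cluster differed between clones. Because Pcdha genes share constant exons, as do Pcdhg genes, the division of reads between single genes of these clusters is uncertain, and only a sum over a whole cluster avoids it among the members. Other annotated genes that overlap these exons, Pcdhgb8 among them, lie outside the sums, which cover the protein-coding members. Of the 31-base stretches of each gene, 45.5% to 90.7% in Pcdha genes and 33.0% to 67.5% in Pcdhg genes also occur in another gene, against at most 22.5% in Pcdhb genes. The Pcdhb sum was 12217, 12268 and 12448 in KO1, 12213, 11639 and 12059 in KO2, 7632, 7829 and 7412 in KO3, against 9848, 8638 and 8462 in WT. Its mean was 12311 ± 121 in KO1, 11970.3 ± 297 in KO2, 7624 ± 208 in KO3 and 8983 ± 755 in WT (SD, n = 3 each), so KO1 and KO2 were above WT, and KO3 below it, without overlap. The Pcdhg sum was 23878, 22697 and 23959.7 in KO1, 17474, 18478 and 18590.2 in KO2, 17779, 17051 and 17749 in KO3, against 14017, 12695 and 12625 in WT, with every clone above WT. The Pcdha sum was small, at 122, 134 and 152 in KO1, 40.1, 20.1 and 32.5 in KO2, 24.9, 29.8 and 18.1 in KO3, against 24.7, 18.6 and 27.998 in WT, with KO1 above the others. Sums were described and not tested. Around the clusters, the nearest 40 tested genes had median log2 differences from WT of 0.08 to 0.17 in the 3 clones.

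**Figure D2:**
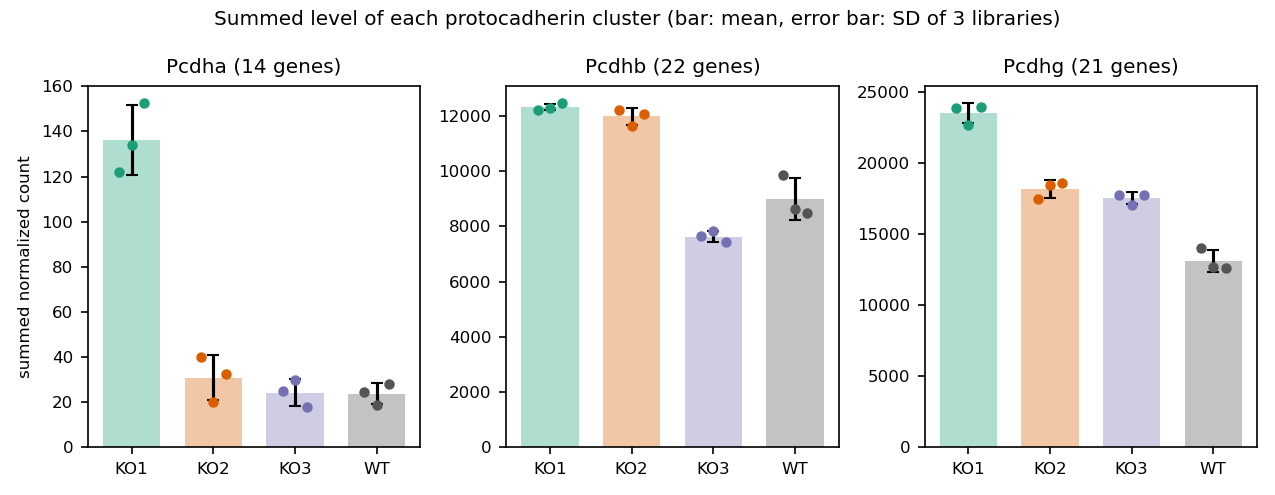
Summed normalized count of the genes of each protocadherin cluster, with KO1, KO2, KO3 and WT from left to right. Bars are means, error bars SDs of 3 libraries and points single libraries. The Pcdhb mean was 12311 in KO1, 11970.3 in KO2, 7624 in KO3 and 8983 in WT, and the Pcdha mean was 136 in KO1 and 23.8 in WT.

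The Pcdhb genes rose and fell in different numbers in each clone. Of 21 tested genes, 11 were higher and 3 lower in KO1, 9 higher and 5 lower in KO2, and 2 higher and 9 lower in KO3. The shares of all genes tested were 26.9% higher and 25.4% lower in KO1, 29.9% higher and 30.5% lower in KO2, 26.8% higher and 27.3% lower in KO3. Per kilobase, Pcdhb5 led the cluster in the clones, at 719 ± 6.16 normalized counts per kilobase in KO1, 770.4 ± 33.3 in KO2 and 428 ± 15.6 in KO3, against 417 ± 50.9 in WT (SD, n = 3). Pcdhb7 led in WT, with 369 ± 4.41 in KO1, 523 ± 23.6 in KO2 and 319 ± 9.17 in KO3, against 518 ± 24.96 in WT per kilobase. Pcdhb5 had 2518, 2553 and 2558 in KO1, 2794, 2587 and 2789 in KO2, 1544, 1448 and 1543 in KO3, against 1682, 1369 and 1372 in WT. It was higher by 0.79 (SE 0.08) in KO1 and 0.89 (SE 0.08) in KO2 (limma adjusted p at most 2.62e-06), and KO3 overlapped with WT. Pcdhb7 had 1309, 1278 and 1294 in KO1, 1927, 1778 and 1789.9 in KO2, 1115, 1148 and 1084 in KO3, against 1912, 1776 and 1749 in WT. It was lower with a log2 difference of -0.49 (SE 0.06) in KO1 and -0.70 (SE 0.06) in KO3 (limma adjusted p at most 1.29e-05), and KO2 overlapped with WT. As a share of the summed Pcdhb level, Pcdhb7 made up 10.5% in KO1, 15.3% in KO2, 14.6% in KO3 and 20.2% in WT.

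Pcdhb2 and Pcdhb8 were the Pcdhb genes with the deepest falls. Pcdhb2 had 497, 387 and 429 in KO1, 60.6, 61.3 and 70.3 in KO2, 26.95, 51.8 and 28.8 in KO3, against 365, 272 and 205 in WT. KO2 and KO3 were below WT without overlap, with a log2 difference of -2.08 (SE 0.25) in KO2 and -2.96 (SE 0.25) in KO3, and KO1 was above it by 0.67 (SE 0.25) (limma adjusted p at most 0.0394). The rise in KO1 did not hold without KO1 replicate 1, KO1 replicate 2, KO1 replicate 3, KO2 replicate 2, WT replicate 2 or WT replicate 3, where its adjusted p reached 0.153, nor with quantile normalization at 0.12, no filter at 0.056 or a replicate block at 0.055. Pcdhb8 had 220.5, 237 and 269 in KO1, 23.3, 49.8 and 39.6 in KO2, 106, 85.1 and 78.8 in KO3, against 219.9, 181 and 194 in WT. It was lower with a log2 difference of -2.43 (SE 0.23) in KO2 and -1.14 (SE 0.23) in KO3 (limma adjusted p at most 0.00116), and here KO3 stood above KO2 by 1.29 (SE 0.23) (limma adjusted p 0.000481). Pcdhb3, next to Pcdhb2, had 154, 178 and 187 in KO1, 82.1, 82.4 and 78.2 in KO2, 54.9, 38.6 and 39.4 in KO3, against 155, 100.4 and 135 in WT and was lower in the same clones, with a log2 difference of -0.66 (SE 0.19) in KO2 and -1.53 (SE 0.19) in KO3 (limma adjusted p at most 0.00845).

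KO1 had 2 outlying Pcdhb genes in opposite directions. Pcdhb14 had 83.5, 77.04 and 96.4 in KO1, 308, 307 and 282 in KO2, 210.4, 261 and 214 in KO3, against 267, 281 and 236 in WT. KO1 was below all other groups, with a log2 difference of -1.60 (SE 0.12) from WT, and KO2 and KO3 exceeded it by 1.80 and 1.40 (limma adjusted p at most 2.6e-06). Pcdhb9 had 1709, 1655 and 1611 in KO1, 1045, 978 and 938 in KO2, 679, 669.5 and 599.8 in KO3, against 644, 664 and 641 in WT. It was higher by 1.35 (SE 0.07) in KO1 and 0.60 (SE 0.07) in KO2, and KO2 was below KO1 with a log2 difference of -0.75 (SE 0.07) (limma adjusted p at most 6.98e-06), while KO3 overlapped with WT. Its share of the Pcdhb sum was 13.5% in KO1, 8.25% in KO2, 8.51% in KO3 and 7.27% in WT. Pcdhb6 had 604, 649 and 549.9 in KO1, 890.1, 838 and 949 in KO2, 322, 316 and 365 in KO3, against 333, 315 and 292 in WT, higher by 0.94 (SE 0.09) in KO1 and 1.51 (SE 0.09) in KO2 (limma adjusted p at most 3.74e-06). In KO2 its rise was the highest of the cluster.

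**Figure D3:**
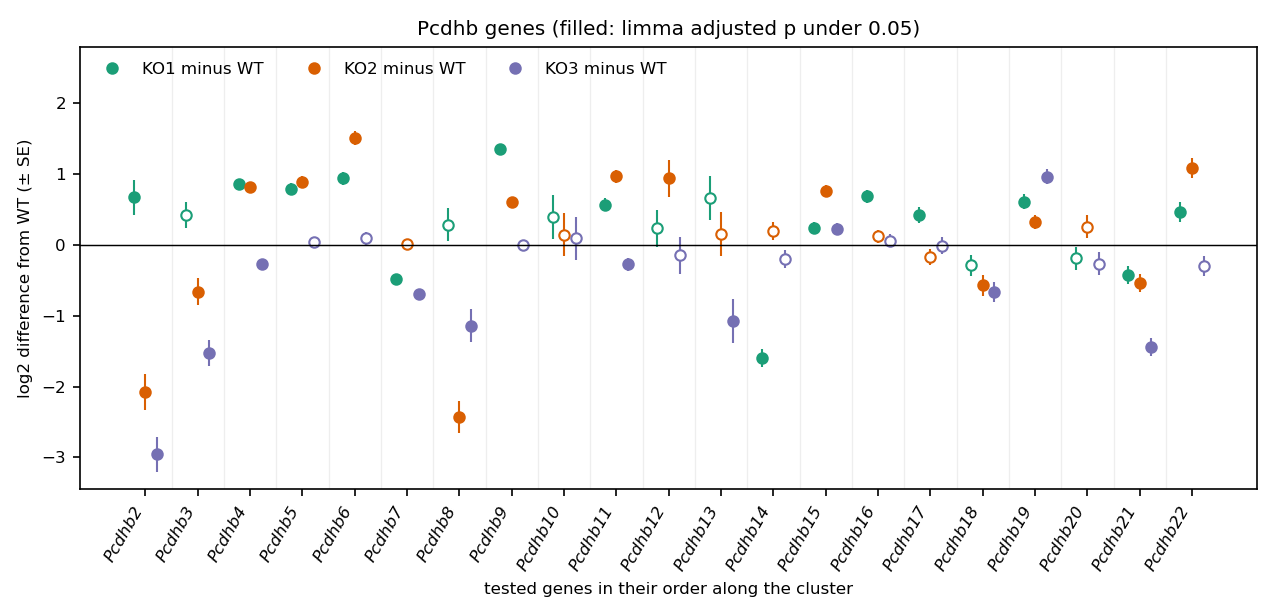
Log2 difference from WT with its SE for the 21 tested Pcdhb genes in their order along the cluster, for KO1, KO2 and KO3. Filled points passed a limma adjusted p of 0.05. Pcdhb2, Pcdhb3 and Pcdhb8 were low in KO2 and KO3, Pcdhb14 was low in KO1, and Pcdhb21 was low in all clones.

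Pcdhb4 and Pcdhb11 were higher in KO1 and KO2 and lower in KO3. Pcdhb4 had 670.0, 657 and 591 in KO1, 626, 596 and 630.3 in KO2, 284, 288 and 300.4 in KO3, against 362, 350.0 and 341 in WT, with log2 differences of 0.86 (SE 0.07) in KO1, 0.81 (SE 0.07) in KO2 and -0.27 (SE 0.07) in KO3 (limma adjusted p at most 0.00798). The 4 groups separated, KO1 and KO2 from each other excepted. Pcdhb11 had 576, 568 and 612 in KO1, 817, 756 and 744 in KO2, 315, 363 and 300.4 in KO3, against 434, 382 and 368 in WT, with 0.57 (SE 0.09) in KO1, 0.97 (SE 0.09) in KO2 and -0.28 (SE 0.09) in KO3 (limma adjusted p at most 0.0233). Its fall in KO3 did not hold without KO3 replicate 1, KO3 replicate 3 or WT replicate 1, where the adjusted p reached 0.0904. The difference between KO3 and KO2 was larger, -1.24 (SE 0.09) (limma adjusted p 3e-07).

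Few Pcdhb genes moved the same way in all clones. Pcdhb21 had 290.0, 322 and 323 in KO1, 269.6, 264 and 332 in KO2, 150.3, 179.9 and 132 in KO3, against 454, 399 and 403 in WT and was lower with a log2 difference of -0.42 (SE 0.13) in KO1, -0.54 (SE 0.13) in KO2 and -1.44 (SE 0.13) in KO3 (limma adjusted p at most 0.0155), with the KO1 call lost without KO1 replicate 1 at 0.0605. Its exons overlap those of Pcdhb22 on the same strand, and Pcdhb22, at 372, 399 and 474 in KO1, 592, 697 and 619 in KO2, 195, 249 and 291 in KO3, against 322, 276 and 299 in WT, was higher by 0.47 (SE 0.14) in KO1 and 1.08 (SE 0.14) in KO2 (limma adjusted p at most 0.0156), so the division of reads between this pair is uncertain. The KO1 call of Pcdhb22 was lost without KO1 replicate 3 or WT replicate 2 at up to 0.0738 and with quantile normalization at 0.11. Pcdhb19 had 326, 347 and 337 in KO1, 278, 262 and 288 in KO2, 405, 462 and 427 in KO3, against 255, 213 and 197 in WT and was higher by 0.61 (SE 0.10) in KO1, 0.32 (SE 0.10) in KO2 and 0.96 (SE 0.10) in KO3 (limma adjusted p at most 0.0181). In KO2 that call was lost without KO2 replicate 3, WT replicate 2 or WT replicate 3, at up to 0.0775, and with quantile normalization at 0.38. Pcdhb15 had 398, 388 and 358 in KO1, 553, 522 and 567 in KO2, 401, 354 and 382 in KO3, against 347, 313 and 313 in WT and was higher by 0.23 (SE 0.08) in KO1, 0.75 (SE 0.08) in KO2 and 0.23 (SE 0.08) in KO3 (limma adjusted p at most 0.0376), and with quantile normalization its calls were lost in KO1 at 0.64 and in KO3 at 0.24, the KO3 call also with no filter at 0.058. The KO1 call of Pcdhb15 was also lost without KO1 replicate 1, KO1 replicate 2, WT replicate 2 or WT replicate 3, at up to 0.108, and the KO3 call without KO1 replicate 2, KO3 replicate 1, KO3 replicate 3, WT replicate 2 or WT replicate 3, at up to 0.13.

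Of the other Pcdhb genes, Pcdhb16 had 1741, 1803 and 1914 in KO1, 1259.5, 1188 and 1240.5 in KO2, 1218, 1276 and 1053 in KO3, against 1299.5, 1072 and 1042 in WT, and was higher in KO1 by 0.68 (SE 0.09) (limma adjusted p 5.12e-05). Pcdhb17 had 386, 350.4 and 442 in KO1, 247, 255 and 274 in KO2, 284, 334 and 256 in KO3, against 305, 284 and 288 in WT, and was higher in KO1 by 0.42 (SE 0.12) (limma adjusted p 0.00888), a call lost with quantile normalization at 0.11. Pcdhb18 had 138, 173 and 159 in KO1, 120.4, 136 and 128 in KO2, 139.9, 117 and 105 in KO3, against 216, 167 and 193 in WT, and was lower with a log2 difference of -0.57 (SE 0.15) in KO2 and -0.67 (SE 0.15) in KO3 (limma adjusted p at most 0.00452). The weak Pcdhb12 was higher in KO2 by 0.94 and Pcdhb13 lower in KO3 with a log2 difference of -1.08 (limma adjusted p at most 0.0109). Pcdhb10 and Pcdhb20 were called in no clone, and their libraries spanned 20.8 to 44.7 and 107 to 191.

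**Figure D4:**
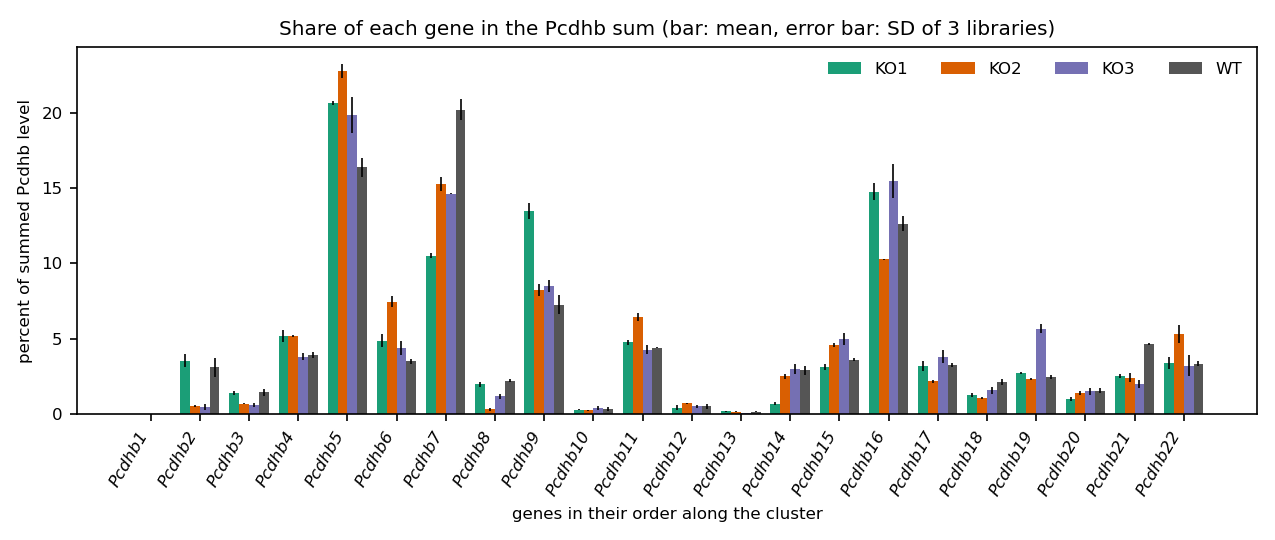
Percent of the summed Pcdhb level held by each of the 22 genes, with KO1, KO2, KO3 and WT from left to right at each gene. Bars are means and error bars SDs of 3 libraries. Pcdhb5 held 20.7% in KO1, 22.7% in KO2, 19.8% in KO3 and 16.4% in WT, and Pcdhb7 was the largest share in WT at 20.2%.

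The Pcdhg cluster was dominated by its C-type genes, whose sum was above WT in every clone, while the sum of the protein-coding A- and B-type genes was above WT in KO2 and below it in KO1 and KO3, a direction that turned in KO1 once Pcdhgb8 was added. Unlike the sum over the whole cluster, these part sums and the values of single genes depend on the uncertain division of reads. Pcdhgc3, Pcdhgc4 and Pcdhgc5 together had 23027, 21903 and 22946 in KO1, 15801, 16849 and 16809 in KO2, 17139, 16419 and 17118 in KO3, against 12706, 11470.2 and 11411 in WT. The Pcdhga and Pcdhgb genes together had 852, 794 and 1014 in KO1, 1674, 1629 and 1781 in KO2, 639.6, 632 and 631 in KO3, against 1311, 1225 and 1214 in WT. With the polymorphic pseudogene Pcdhgb8 added, an alternative chosen after seeing the data, they had 1919, 1788 and 2108 in KO1, 3111, 2994 and 3269.5 in KO2, 1366, 1459 and 1381 in KO3, against 1759, 1693 and 1652 in WT, so that KO1 was above WT. Pcdhgb8 alone had 1067, 994 and 1094 in KO1, 1437, 1365 and 1488 in KO2, 727, 827 and 750.0 in KO3, against 448, 468 and 438 in WT. No clone overlapped with WT in these sums, and KO2 and KO3 overlapped in the sum of the C-type genes. Pcdhgc3, the C-type isoform found beyond the nervous system, had 22121, 20722 and 21324 in KO1, 13587, 15459.9 and 16240.3 in KO2, 16194, 15865 and 15916 in KO3, against 12630.5, 10955 and 11176 in WT and was higher by 0.89 (SE 0.07) in KO1, 0.38 (SE 0.07) in KO2 and 0.47 (SE 0.07) in KO3 (limma adjusted p at most 0.000512). An antisense gene, BC037039, overlaps it and was at 183, 179 and 168 in KO1, 211, 185 and 166 in KO2, 166, 185 and 195 in KO3, against 34.1, 46.6 and 60.5 in WT. Whether the counting used strand is not known here, and the antisense level was at most a small part of that of Pcdhgc3. Pcdhgc4 was uneven, at 835, 1089 and 1555 in KO1, 2130.0, 1327 and 484 in KO2, 889, 501 and 1157 in KO3, against 18.8, 462 and 208 in WT, with log2 differences of 3.18 (SE 0.91) in KO1, 3.16 (SE 0.91) in KO2 and 2.69 (SE 0.91) in KO3 (limma adjusted p at most 0.0241). In KO3 its call was lost without KO3 replicate 1, KO3 replicate 3 or WT replicate 1, at up to 0.0789, and with DESeq2 at 0.062. Pcdhgc5 was higher by 0.76 in KO1 and 0.78 in KO2 (limma adjusted p at most 0.0265), calls that quantile normalization ended at 0.24 in KO1 and 0.075 in KO2. They were also lost without KO1 replicate 2 or WT replicate 3 in KO1, at up to 0.103, and without KO2 replicate 1, KO2 replicate 3 or WT replicate 3 in KO2, at up to 0.0829.

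Single A- and B-type genes differed sharply between clones, within the limit on divided reads above. Pcdhgb2 had 149, 116 and 214 in KO1, 1112, 1053 and 1097 in KO2, 315, 359.8 and 329 in KO3, against 619, 565 and 573 in WT. No 2 groups overlapped, and the log2 differences were -1.91 (SE 0.17) in KO1, 0.89 (SE 0.17) in KO2 and -0.81 (SE 0.17) in KO3 (limma adjusted p at most 0.0013). Pcdhga6 had 248, 185 and 262 in KO1, 139.9, 126 and 180.2 in KO2, 25.9, 14.04 and 21.3 in KO3, against 199, 202 and 213 in WT. KO3 lay below all other libraries, with a log2 difference of -3.30 (SE 0.22) from WT, -3.46 from KO1 and -2.83 from KO2 (limma adjusted p at most 4.33e-07). Pcdhga1 had 172, 195 and 246 in KO1, 84.9, 72.8 and 71.2 in KO2, 44.6, 53.5 and 62.9 in KO3, against 183, 174 and 149 in WT and was lower with a log2 difference of -1.13 (SE 0.17) in KO2 and -1.64 (SE 0.17) in KO3 (limma adjusted p at most 0.000104). KO1 overlapped with WT in both Pcdhga6 and Pcdhga1.

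The remaining called Pcdhg genes were weak, with means under 100. Pcdhga4 was higher by 0.81 in KO1 and 1.13 in KO2 (limma adjusted p at most 0.00454), the KO1 call ending with quantile normalization at 0.11. Pcdhga3 was higher by 0.69 in KO2 and 0.55 in KO3 (limma adjusted p at most 0.031). Pcdhgb7 was lower with a log2 difference of -0.68 in KO2 and -1.66 in KO3 and Pcdhgb6 lower with a log2 difference of -1.19 in KO1 (limma adjusted p at most 0.0299). Pcdhga5 was higher in KO2 by 0.90 and lower in KO3 with a log2 difference of -1.03, and Pcdhga12 was lower in KO3 with a log2 difference of -1.46 (limma adjusted p at most 0.0304). Leaving out single libraries ended some of these calls. Pcdhga3 in KO3 was lost without KO3 replicate 1, WT replicate 2 or WT replicate 3, at up to 0.129. Pcdhgb7 in KO2 was lost without KO2 replicate 1, KO2 replicate 2, WT replicate 2 or WT replicate 3, at up to 0.106, and Pcdhgb6 in KO1 without KO1 replicate 1 at 0.0563. Pcdhga5 was lost in KO2 without KO2 replicate 2, KO2 replicate 3 or WT replicate 2 and in KO3 without KO3 replicate 3, WT replicate 1 or WT replicate 3, at up to 0.122 and 0.0716, and Pcdhga12 in KO3 without KO3 replicate 1, KO3 replicate 2 or WT replicate 2, at up to 0.0685. With no filter on low values the calls of Pcdhga3 in KO3, at 0.074, Pcdhgb7 in KO2, at 0.096, and Pcdhga5 in KO2, at 0.070, also ended. Quantile normalization ended those of Pcdhga3 in KO2, at 0.056, and Pcdhga5 in KO2, at 0.081, and DESeq2 that of Pcdhgb7 in KO2, at 0.055.

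**Figure D5:**
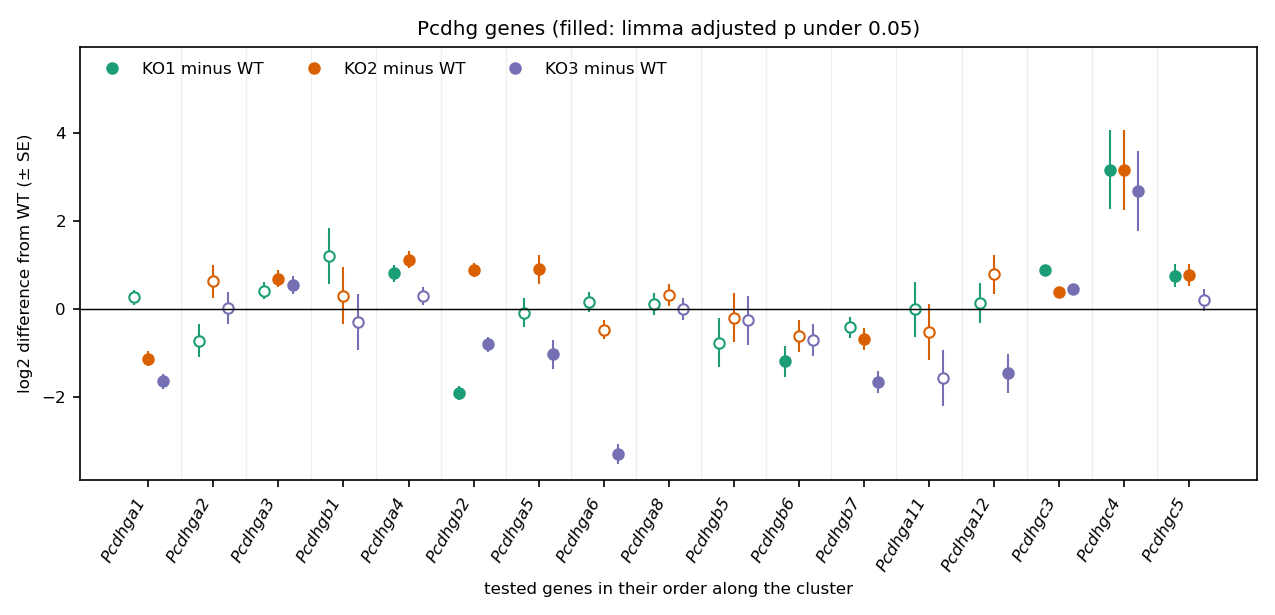
Log2 difference from WT with its SE for the 17 tested Pcdhg genes in their order along the cluster, for KO1, KO2 and KO3. Filled points passed a limma adjusted p of 0.05. Pcdhgb2 was lowest in KO1, Pcdhga6 was low in KO3 at -3.30, and Pcdhgc3 was higher in all clones.

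Pcdha transcripts were close to absent in WT, KO2 and KO3 and detectable in KO1. Pcdha1 had 21.4, 21.1 and 39.3 in KO1, 0, 0 and 0 in KO2, 9.33, 0 and 0 in KO3, against 0, 0 and 0 in WT, and its 80 reads in KO1 were at least 26.9-fold higher than the floor of 3 reads that stands for the 0 reads of WT. Pcdha3 had 10.7, 24.3 and 15.7 in KO1, 0, 0 and 0 in KO2, 2.07, 0 and 0 in KO3, against 0, 0 and 0 in WT, at least 16.5-fold higher in KO1 than that floor. Pcdha9, the Pcdha gene with the most reads, had 52.4, 25.3 and 28.5 in KO1, 28.9, 14.4 and 19.3 in KO2, 5.18, 14.04 and 9.59 in KO3, against 11.8, 11.4 and 11.7 in WT, and Pcdha12 had 22.5, 25.3 and 22.6 in KO1, 5.598, 5.75 and 4.396 in KO2, 6.22, 9.65 and 0 in KO3, against 4.704, 2.07 and 3.61 in WT. Pcdha1, Pcdha3 and Pcdha12 passed the filter only through KO1, so their differences are given as values, with no test. Pcdha9 was higher in KO1 than in WT by 1.46 (SE 0.38) (limma adjusted p 0.00673) and was not called in KO2 or KO3. Among those below the filter, Pcdha2 reached 3.21, 23.2 and 8.85 in KO1, and Pcdhac1 had 13 reads and Pcdhac2 8 reads there, against 0 in WT for all of them. KO3 was below KO1 in Pcdha9 with a log2 difference of -1.80 (limma adjusted p 0.00218). Neural and glial markers, of which 4 of 8 passed the filter, summed to 298 to 347 in KO1, 319 to 374 in KO2, 207 to 293 in KO3, against 85.8 to 105 in WT, while Snap25 was at 0 and Map2 and Sox10 were at or near 0 in every library. Of the 4 tested, 3 were higher in KO1, 4 in KO2 and 3 in KO3, and none was lower. Of all genes tested, 26.9%, 29.9% and 26.8% were higher in these clones in turn. The mean of Tubb3 was 209.6 in KO1, 156.7 in KO2 and 147.9 in KO3, against 23.7 in WT. Gfap and S100b passed the filter only through the clones, which bears on their direction. The part of neural and glial transcripts in the protocadherin values was not tested.

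The clones also differed from each other in this family. For KO2 against KO1, 12 of 58 members were higher (20.7%, against 20.5% of all genes) and 21 lower (36.2%, against 23.9%). For KO3 against KO1, 4 of 58 members were higher (6.9%, against 20.3% of all genes) and 33 lower (56.9%, against 23.4%). For KO3 against KO2, 5 of 58 members were higher (8.62%, against 26.1% of all genes) and 29 lower (50%, against 27.0%). Over all genes, 44.4%, 43.6% and 53.1% were called in either direction in these comparisons in turn. Of the 42 clustered genes, 24 were lower and 3 higher in KO3 than in KO1, and 23 lower and 2 higher than in KO2. Of the 16 non-clustered genes, 9 were lower and 1 higher than in KO1, and 6 lower and 3 higher than in KO2. Among the 11 Cdh genes, 2 were lower and 2 higher in KO3 than in KO2. Cdh15, Pcdha1, Pcdha3 and Pcdha12 are included in these counts. They passed the filter only through KO1, which bears on their direction in both comparisons with KO1. Pcdh1 was highest in KO1 and differed from it with a log2 difference of -0.26 in KO2 and -0.43 in KO3 (limma adjusted p at most 0.00333).

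Partners of cadherins are given next, as lists. Of 13 genes of catenins and their binding proteins 10 were tested, with 4 higher and 2 lower in KO1, 5 higher and 2 lower in KO2 and 4 higher and 2 lower in KO3, and a median log2 difference of -0.02 in KO1, 0.35 in KO2 and 0.04 in KO3. Beside these counts and those of the lists that follow, the shares over all genes tested were 26.9% higher and 25.4% lower in KO1, 29.9% higher and 30.5% lower in KO2, 26.8% higher and 27.3% lower in KO3. Ctnna1, alpha-catenin, had 18375, 17658 and 18230.0 in KO1, 19104, 18388 and 19498 in KO2, 18629, 18869.9 and 18537 in KO3, against 14807, 11774 and 11345 in WT and was higher by 0.53 in KO1, 0.60 in KO2 and 0.57 in KO3 (limma adjusted p at most 0.000157). Arvcf, of the p120-catenin family, was higher by 0.93 in KO1, 1.03 in KO2 and 1.35 in KO3 (limma adjusted p at most 0.000161). Ctnnb1, beta-catenin, was lower with a log2 difference of -0.21 in KO1, -0.22 in KO2 and -0.36 in KO3, and Vcl, the actin linker vinculin, with a log2 difference of -0.15 in KO1, -0.25 in KO2 and -0.32 in KO3 (limma adjusted p at most 0.0484). Of 6 transcription factors of the Snai, Zeb and Twist families, several of which are known to repress Cdh1, 5 higher and 1 lower in KO1, 4 higher and 1 lower in KO2 and 3 higher and 1 lower in KO3 were counted, beside those same shares. Zeb2 had 4519.7, 4430.4 and 4359.5 in KO1, 3186, 3260.1 and 3312 in KO2, 4643, 4429 and 4289 in KO3, against 1578, 1408 and 1456 in WT, higher by 1.58 in KO1, 1.14 in KO2 and 1.59 in KO3, and Zeb1 was higher by 0.44 in KO1, 0.50 in KO2 and 0.25 in KO3 (limma adjusted p at most 0.0151). Twist2 was higher by 1.70 in KO1, 1.15 in KO2 and 1.07 in KO3, and Snai1 was higher by 0.59 in KO1 and 0.52 in KO2 and lower with a log2 difference of -0.80 in KO3 (limma adjusted p at most 0.00406). The list's median log2 difference was 0.52 in KO1, 0.51 in KO2 and 0.13 in KO3.

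Of 10 genes of cadherin-processing proteases, 3 higher and 2 lower in KO1, 4 higher and 2 lower in KO2 and 3 higher and 4 lower in KO3 were counted, with medians of -0.07 in KO1, 0.21 in KO2 and -0.11 in KO3. The corresponding shares over all genes tested were 26.9% higher and 25.4% lower in KO1, 29.9% higher and 30.5% lower in KO2, 26.8% higher and 27.3% lower in KO3. Furin, the convertase that cleaves cadherin precursors, had 698, 587 and 621 in KO1, 704, 707 and 646 in KO2, 429, 462 and 460.3 in KO3, against 138, 135 and 134 in WT and was higher by 2.22 in KO1, 2.33 in KO2 and 1.73 in KO3 (limma adjusted p at most 4.21e-09). Mmp14, a membrane metalloprotease, was higher by 0.96 in KO1, 0.83 in KO2 and 0.94 in KO3, and Psen2, a catalytic subunit of gamma-secretase, by 1.03 in KO1, 1.01 in KO2 and 0.87 in KO3 (limma adjusted p at most 0.00243). Ncstn, another subunit of gamma-secretase, was lower with a log2 difference of -0.36 in KO2 and -0.42 in KO3 (limma adjusted p at most 8.85e-06). Of 15 regulators of clustered protocadherin transcription, 0 higher and 7 lower in KO1, 2 higher and 9 lower in KO2 and 1 higher and 9 lower in KO3 were counted, beside the same shares over all genes, with medians of -0.15 in KO1, -0.24 in KO2 and -0.24 in KO3. The cohesin subunits Stag1, with a log2 difference of -0.38 in KO1, -0.65 in KO2 and -0.54 in KO3, and Smc3, with a log2 difference of -0.30 in KO1, -0.57 in KO2 and -0.62 in KO3, were lower (limma adjusted p at most 0.00789). The DNA methyltransferases Dnmt1, with a log2 difference of -0.33 in KO1, -0.67 in KO2 and -0.37 in KO3, and Dnmt3b, with a log2 difference of -0.29 in KO1, -0.84 in KO2 and -0.32 in KO3, were lower as well (limma adjusted p at most 0.0176).

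Of 10 genes of protocadherin effectors, 5 higher and 2 lower in KO1, 4 higher and 1 lower in KO2 and 4 higher and 0 lower in KO3 were counted, with medians of 0.22 in KO1, 0.08 in KO2 and 0.14 in KO3. The shares over all genes tested were again 26.9% higher and 25.4% lower in KO1, 29.9% higher and 30.5% lower in KO2, 26.8% higher and 27.3% lower in KO3. The kinase Fyn was higher by 0.65 in KO1, 0.57 in KO2 and 0.77 in KO3 and Wasf1, of the WAVE complex, by 0.55 in KO1, 0.34 in KO2 and 0.50 in KO3 (limma adjusted p at most 0.000153). Abi1, of the same complex, was lower with a log2 difference of -0.15 in KO1 and higher by 0.22 in KO2 and 0.30 in KO3 (limma adjusted p at most 0.0287). Ptk2b, a kinase of the focal adhesion kinase family, was higher by 0.81 in KO1 and 1.55 in KO2 (limma adjusted p at most 0.00101). Of 22 genes of other branches of the cadherin superfamily 11 were tested, with 4 higher and 2 lower in KO1, 4 higher and 2 lower in KO2 and 3 higher and 3 lower in KO3 and medians of -0.16 in KO1, 0.18 in KO2 and 0.14 in KO3, beside the same shares. Clstn1, a calsyntenin, was higher by 0.60 in KO1, 0.46 in KO2 and 0.50 in KO3 (limma adjusted p at most 5.86e-06). Fat2, a giant cadherin, had 102, 93.9 and 107 in KO1 and 8.40, 9.58 and 14.9 in KO2. It had 27.0, 37.7 and 30.9 in KO3, against 7.06, 6.21 and 0.903 in WT. Fat2 passed the filter only through the clones, which bears on its direction in these counts, and is given as values, with no test. Fat4, the receptor of the Dachsous cadherins, had 1201, 1190.5 and 1200.0 in KO1, 2457, 2557 and 2933 in KO2, 1161, 1164 and 1138 in KO3, against 2020.4, 1539.7 and 1605 in WT and was lower with a log2 difference of -0.51 in KO1 and -0.57 in KO3 and higher by 0.63 in KO2 (limma adjusted p at most 0.00059). Fat1 was lower with a log2 difference of -0.30 in KO2 and -0.92 in KO3 (limma adjusted p at most 0.00936). In the authors' deposited tables of clone against WT, 32 of the 58 members in KO1, 33 in KO2 and 26 in KO3 had an adjusted p under 0.05. Of these, 32, 32 and 25 were also called here with the same sign, and none with the opposite sign.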

How the data were processed

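RNA-seq was analysed in 12 libraries, 3 each of KO1, KO2, KO3 and WT NIH-3T3 cells. The deposited table holds normalized counts, a signal of whole reads divided by 1 size factor per library by the authors, and cutadapt, Salmon 0.14.1, DESeq2 1.24.0 and GRCm38/mm10 are named in the submitters' processing notes, with settings and strand not given in the sources used here. Tables of the authors give a log2 fold change and a p-value with its adjusted p-value per clone, used here only for a count of shared calls. Whole reads were recovered from the normalized counts within a tolerance of 0.02 for 99.94% to 99.99% of values, and the recovered depth was 32929242 to 42211807 reads a library. Of 54392 gene rows, 35 identifiers had no match in the annotation, and all 12 columns were used.

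The values log2(normalized count + 1) were fitted with limma 3.58.1 in R 4.3.3 on all 12 libraries (4 groups, 8 residual degrees of freedom), for the 15073 genes with at least 10 in at least 3 libraries, with Benjamini-Hochberg adjustment over all of them and a threshold of 0.05. This scale understates changes of low genes. The fits were tested on simulated data. Alternatives were other pseudocounts and filters, quantile normalization, edgeR 4.0.16 and DESeq2 1.42.0 on the recovered reads, a replicate block, leaving out each library, and subtracting the median of 20 tested genes on each side. Counting intervals (95%) and the floor of 3 reads over a group cover counting error only.

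The members and the lists were chosen with earlier results of these data known. Every member could be named, with called members of a mean of at least 100 in full, and from each partner list up to 4 genes by the smallest of their largest adjusted p over the clones. Marker genes named beside a member were chosen after their values were seen. For 2 identifiers that carry the symbol Pcdha11, both were kept. Pcdhgb8, annotated as a polymorphic pseudogene, is no member, and a sum with it was added after seeing the data.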

Additional observations from a re-analysis of the deposited data

Results flagged for a closer look

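In 5 of 58 tested members, the calls against WT had opposite directions in different clones. That share, 8.62%, was close to the 8.38% of all genes tested. All of these 5 are clustered protocadherins, as are 42 of the 58 tested members. For each, the difference between the clones called in opposite directions was itself past the limma threshold. For Pcdhb4, KO3 minus KO1 was -1.13 and KO3 minus KO2 was -1.08 on the log2 scale. For Pcdhb11, KO3 minus KO1 was -0.84 and KO3 minus KO2 was -1.24. For Pcdhb2, KO2 minus KO1 was -2.75 and KO3 minus KO1 was -3.63. For Pcdhgb2, KO2 minus KO1 was 2.80 and KO3 minus KO2 was -1.70. For the weak Pcdhga5, KO3 minus KO2 was -1.93. The calls against WT of Pcdhb2 in KO1, Pcdhb11 in KO3 and Pcdhga5 in KO2 and KO3 were lost without certain single libraries.

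Pcdhgb8, a polymorphic pseudogene of the Pcdhg cluster that lies outside the protein-coding members, was above WT in every clone, with log2 differences of 1.22 in KO1, 1.66 in KO2 and 0.76 in KO3. Its constant exons are shared with the other Pcdhg genes, so the division of reads is uncertain here too.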

How the results depend on the processing

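The counts of called members stayed within 1.5 times the counts reported under every alternative run, and over the libraries left out 1 at a time they ranged from 29 to 37 in KO1, 29 to 36 in KO2 and 24 to 30 in KO3 against WT. The direction changed in 4 cases, and the cause was not tested. With the median of neighbouring genes subtracted, Pcdh19 in KO3 minus KO2 was 0.17. The log2 ratio of the summed Pcdha level in KO3 over WT was 0.03 with all libraries, -0.15 without KO3 replicate 2 and -0.12 without WT replicate 2, in a range of -0.15 to 0.20. With Pcdhgb8 added to the summed A- and B-type Pcdhg genes, chosen after seeing the data, the log2 ratio over WT was 0.19 in KO1, 0.88 in KO2 and -0.28 in KO3, against -0.50, 0.44 and -0.98 without it. Replicate numbers did not pair the libraries, since the correlations of same-numbered deviations ran from -0.22 to 0.12. With a replicate block, 33 members in KO1, 35 in KO2 and 31 in KO3 were called against WT. Over single genes, quantile normalization ended 22 calls, no filter on low values 17, DESeq2 8, the replicate block 6 and a pseudocount of 0.5 ended 3. Leaving out 1 library ended a call in 145 instances and left 2255 unaltered in call and direction. Subtracting the neighbours' median moved 50 values by more than their SE and left 149 within it. Genes with few reads are limited by depth.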
